A study of Mus musculus with 8 samples.

Results

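Myogenin binding in C2C12 cells was described gene by gene, by counting the myogenin peaks called near each protein-coding gene after differentiation without or with bexarotene. C2C12 is a mouse myoblast line of the C3H strain, which leaves the cell cycle and fuses into myotubes when serum is lowered. The control (Ctl) culture was kept in differentiation medium with horse serum for 24 h, and the bexarotene (Bex) culture was kept in the same medium for the same 24 h with bexarotene present at 50 nM from the start. Chromatin of each condition was precipitated with the same myogenin antibody, and 1 library was sequenced per condition, so no replicate error exists and no test between conditions was made. Each library is represented by its list of peak positions on the mouse mm9 genome, without tag counts or scores, and the sequencing depth behind a peak is therefore unknown here. The members are the 5912 peaks of the control list and the 6642 peaks of the bexarotene list, together with the 4257 of 22372 protein-coding genes to which at least 1 of them was assigned.

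Myogenin is a basic helix-loop-helix factor of the MyoD family that drives the terminal steps of muscle differentiation. It binds E-boxes as a heterodimer with E-proteins and activates genes of the contractile apparatus, the neuromuscular synapse and fusion, often together with Mef2 factors and the acetyltransferase p300. Bexarotene is a synthetic agonist of the retinoid X receptors (RXR), the shared dimerization partners of retinoic acid receptors and of many other nuclear receptors.

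A peak was assigned to the gene of the nearest protein-coding transcription start site (TSS) when that site lay within 50 kb of the peak center. A gene with at least 1 bexarotene peak and no control peak assigned was counted as gained, a gene with at least 1 control peak and no bexarotene peak as lost, and a gene with peaks of each list as bound in both. These words describe which list held a called peak. The lists do not show how strong a peak was, and how close a missing peak came to the calling threshold in the other library was not tested.

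Sequences are shown first for a few gained genes, a few lost genes and 2 genes bound in both lists, with and without E-boxes, as the central 100 bp of peaks, 5′ to 3′ on the plus strand of mm9. They were chosen as examples and do not carry the shares given further on. Capitals mark E-boxes, counted here as CAGCTG, which reads the same on each strand, or as CACCTG in either orientation, and a peak is said to hold an E-box when its central 100 bp does. Windows over an annotated exon were not printed. Myom3, which encodes a myomesin of the sarcomeric M-band, gained 3 intronic peaks, and each held at least 1 E-box.
Myom3 intron 5, chr4:135321828-135321927: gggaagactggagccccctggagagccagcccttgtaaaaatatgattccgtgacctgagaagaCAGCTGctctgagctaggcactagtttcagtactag
Myom3 intron 7, chr4:135328719-135328818: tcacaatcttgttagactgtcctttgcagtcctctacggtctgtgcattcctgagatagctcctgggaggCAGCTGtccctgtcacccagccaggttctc
Myom3 intron 9, chr4:135330568-135330667: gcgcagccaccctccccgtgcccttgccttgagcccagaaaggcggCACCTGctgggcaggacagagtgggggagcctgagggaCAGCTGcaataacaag

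Ehd4, which encodes an ATPase of endocytic traffic, gained 4 intronic peaks, of which 2 held an E-box and 2 did not, and over all gained genes 54.8% had one in an assigned peak.
Ehd4 bexarotene peak, chr2:119975573-119975672: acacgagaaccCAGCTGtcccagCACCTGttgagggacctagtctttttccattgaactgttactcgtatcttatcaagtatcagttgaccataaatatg
Ehd4 bexarotene peak, chr2:119973444-119973543: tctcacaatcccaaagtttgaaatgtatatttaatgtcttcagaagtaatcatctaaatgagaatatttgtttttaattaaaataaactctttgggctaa

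Lmna, which encodes the nuclear lamins A and C and was bound in both lists, went from 1 to 7 peaks, and its longest bexarotene peak held 3 E-boxes, while its control peak held none.
Lmna bexarotene peak, chr3:88300769-88300868: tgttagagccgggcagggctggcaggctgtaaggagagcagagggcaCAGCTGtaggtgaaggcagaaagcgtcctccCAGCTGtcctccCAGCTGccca
Lmna control peak, chr3:88296725-88296824: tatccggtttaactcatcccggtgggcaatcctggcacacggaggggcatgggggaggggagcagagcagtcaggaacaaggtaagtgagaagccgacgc

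Musk, the receptor tyrosine kinase of the neuromuscular junction, also bound in both lists, kept its upstream control peak under bexarotene and had a further peak with 3 E-boxes at its promoter, 315 bp upstream of a TSS. Tnnt3, the fast skeletal troponin T, gained an intronic peak with 2 E-boxes.
Musk bexarotene peak, chr4:58298469-58298568: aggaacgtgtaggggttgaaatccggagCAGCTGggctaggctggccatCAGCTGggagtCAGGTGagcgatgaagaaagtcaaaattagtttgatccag
Tnnt3 bexarotene peak, chr7:149686091-149686190: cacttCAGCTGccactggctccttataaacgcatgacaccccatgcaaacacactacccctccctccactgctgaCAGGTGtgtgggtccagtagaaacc

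Dhrs3, a retinaldehyde reductase that is a known retinoid target, gained 2 peaks in intron 1 with 1 and 2 E-boxes.
Dhrs3 bexarotene peak, chr4:144484383-144484482: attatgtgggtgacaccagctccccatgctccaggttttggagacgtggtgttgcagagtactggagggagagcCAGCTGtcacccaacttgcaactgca
Dhrs3 bexarotene peak, chr4:144484821-144484920: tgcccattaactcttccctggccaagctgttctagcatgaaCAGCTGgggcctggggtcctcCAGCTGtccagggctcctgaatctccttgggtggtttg

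Among lost genes, Zfp36l2, an mRNA decay factor, had 6 control peaks of which 3 held an E-box, and Nr4a1, an orphan nuclear receptor that can dimerize with RXR, had 4 upstream control peaks of which 2 held an E-box.
Zfp36l2 control peak, chr17:84587590-84587689: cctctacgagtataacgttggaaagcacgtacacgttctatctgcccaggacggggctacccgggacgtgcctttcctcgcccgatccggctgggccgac
Zfp36l2 control peak, chr17:84588013-84588112: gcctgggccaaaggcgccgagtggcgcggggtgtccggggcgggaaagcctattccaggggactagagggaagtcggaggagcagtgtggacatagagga
Zfp36l2 control peak, chr17:84588739-84588838: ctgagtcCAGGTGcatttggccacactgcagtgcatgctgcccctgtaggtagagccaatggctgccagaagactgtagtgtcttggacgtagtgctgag
Nr4a1 control peak, chr15:101078659-101078758: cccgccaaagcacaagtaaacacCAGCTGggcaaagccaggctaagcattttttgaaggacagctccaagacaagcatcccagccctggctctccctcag
Nr4a1 control peak, chr15:101084292-101084391: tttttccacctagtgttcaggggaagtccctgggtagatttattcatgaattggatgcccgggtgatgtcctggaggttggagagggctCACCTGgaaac

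Over the whole lists, 47.7% of the control peaks and 60.3% of the bexarotene peaks held an E-box in this central 100 bp. In windows of the same length placed 2 kb to either side of the centers the shares were 12.6% and 12.2%, and around protein-coding TSS the share was 13.3%.

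Of the control peaks 4529 (76.6%) were assigned to 3045 genes, which is 13.6% of the protein-coding genes, and of the bexarotene peaks 4866 (73.3%) were assigned to 3183 genes, or 14.2%. A bound gene had on average 1.49 control peaks or 1.53 bexarotene peaks, and 334 and 409 genes had at least 3. Of all protein-coding genes, 1212 (5.42%) gained all their peaks under bexarotene, 1074 (4.8%) lost all their peaks and 1971 (8.81%) were bound in both lists. With a 10 kb limit on the distance the order of gained and lost genes turned, to 858 gained and 1030 lost. Among the genes bound in both, 489 (2.19% of all protein-coding genes) had more bexarotene than control peaks, 335 (1.5%) had fewer and 1147 had the same number. The number of genes with a peak thus differed little between the lists, and 1971 of the 4257 bound genes were shared. Of the gained genes 713 and of the lost genes 618 kept their class in each of 7 alternative ways of assigning or selecting the peaks, a count that leaves out the 10 kb limit, the TSS of every biotype and the restriction to longer peaks. The class of the others depended on these choices.

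**Figure D1:**
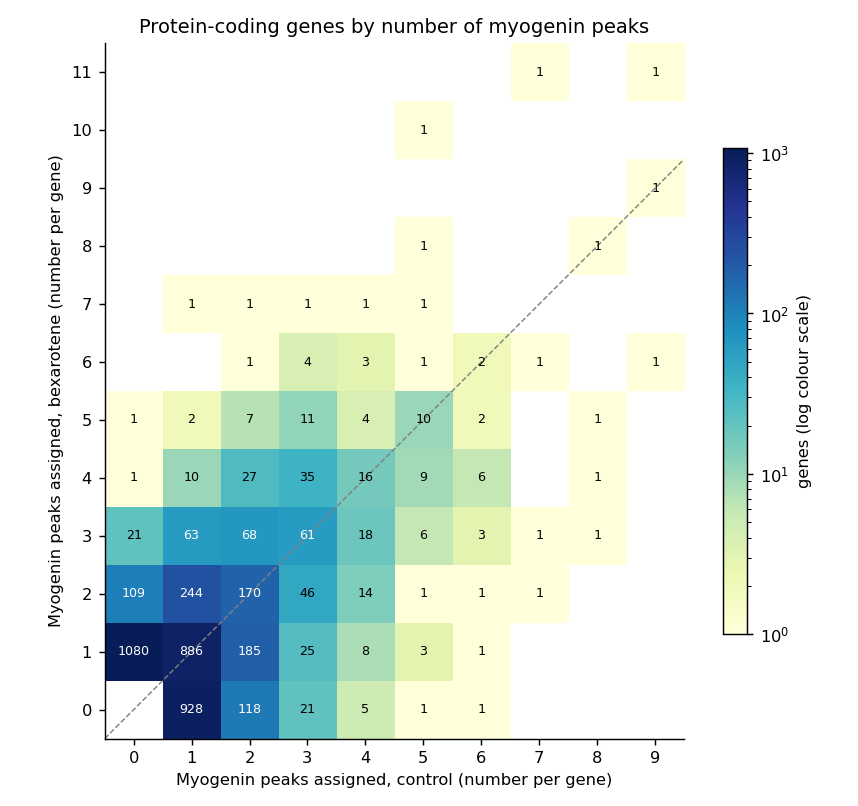
Number of protein-coding genes (figure in each cell, log color scale) by the number of myogenin peaks assigned to the gene in the control list (x axis) and in the bexarotene list (y axis). The column at 0 holds the gained genes, of which 1080 have 1 peak, the row at 0 the lost genes, of which 928 have 1 peak, and 886 genes have 1 peak in each list.

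Gained and lost genes were mostly genes with 1 small peak. Exactly 1 peak was assigned to 1080 of the 1212 gained genes (89.1%) and to 928 of the 1074 lost genes (86.4%). The shortest interval, which many peaks share, was 172 bp long in the control list and 168 bp long in the bexarotene list. A longer peak was present at 366 gained genes (30.2%) and 279 lost genes (26.0%), against 1593 genes (80.8%) bound in both. Genes bound in both were counted over the peaks of both lists together, and so had more chances to hold a longer peak. Peak by peak, 28.2% of the peaks at gained genes and 23.5% of those at lost genes were longer. At genes bound in both, 56.3% of the bexarotene and 50.4% of the control peaks were. A gained gene also did not always lack control binding nearby: 338 gained genes (27.9%) had a control peak within 50 kb of a TSS that was assigned to a closer gene, and 331 lost genes (30.8%) had such a bexarotene peak. The TSS of a lost gene lay within 50 kb of 177 gained genes.

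The muscle enolase gene Eno3 and its neighbor Pfn1, which encodes the actin-binding protein profilin, formed such a pair of a gained and a lost gene, singled out after their values were seen. Eno3 lies on chromosome 11 from 70470704 to 70476015, and Pfn1 lies just upstream of it from 70465352 to 70468146. Eno3 had 0 control and 3 bexarotene peaks, all within 1 kb of a TSS, at 70470590 to 70470757, 70471234 to 70471401 and 70472006 to 70472223. Pfn1 had 3 control peaks, at 70465630 to 70465801, 70468420 to 70468591 and 70468917 to 70469276, and 0 bexarotene peaks. The control peaks thus lay in and before Pfn1, the bexarotene peaks lay at the starts of Eno3, and no peak of either list overlapped a peak of the other.

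Peaks at lost genes lay closer to the TSS than those of the other classes. A bexarotene peak within 1 kb of a TSS was found at 298 gained genes (24.6%, 95% Wilson interval 22.2 to 27.1), and a control peak within 1 kb of a TSS at 645 lost genes (60.1%, 57.1 to 62.9). Genes bound in both had such a bexarotene peak in 23.0% (21.2 to 24.9) and such a control peak in 29.4% (27.5 to 31.5). Counted by gene, the gained genes were thus close to other bexarotene-bound genes, and the lost genes stood apart. Peak by peak, 22.6% (20.4 to 24.8) of the 1370 peaks at gained genes and 55.8% of the 1258 peaks at lost genes were within 1 kb of a TSS. At genes bound in both, 14.9% (13.8 to 16.1) of the bexarotene and 22.2% (20.8 to 23.7) of the control peaks were. Counted by peak, binding at gained genes was therefore more often near a TSS than bexarotene binding at genes bound in both. Introns beyond 1 kb held 42.1% of the peaks at gained genes and 20.2% of those at lost genes, and the median distance to the TSS was 7160.5 bp and 778.5 bp. These intervals cover counting error over genes or peaks of 1 library and not the variation between cultures.

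The classes differed in sequence as well. An E-box in an assigned peak was present at 664 gained genes (54.8%, 52.0 to 57.6) and at 304 lost genes (28.3%, 25.7 to 31.1). Both shares were below those of genes bound in both, 73.6% (71.6 to 75.5) for bexarotene and 67.4% (65.3 to 69.4) for control peaks. Genes bound in both had more peaks each, and so more chances to hold an E-box. Peak by peak, 51.6% at gained and 25.4% at lost genes held one. At genes bound in both, 61.1% of the bexarotene and 52.8% of the control peaks did. At least 2 E-boxes near the center were found in 14.1% of the peaks at gained genes and in 4.85% of those at lost genes, against 19.8% of bexarotene and 17.0% of control peaks at genes bound in both. Among peaks within 1 kb of a TSS, 24.9% at gained genes (20.4 to 30.0) and 17.5% at lost genes (14.9 to 20.5) held an E-box, intervals that just overlap. Among more distant peaks the shares were 59.4% (56.4 to 62.3) and 35.3% (31.4 to 39.3). The GC box GGGCGG, searched on both strands of the whole interval, occurred in 7.52% of the peaks at gained genes and 19.3% of the peaks at lost genes, and in 9.61% and 11.4% of the bexarotene and control peaks at genes bound in both. These GC box shares were not split by distance, and 22.6% of the peaks at gained genes but 55.8% at lost genes lay within 1 kb of a TSS. Whether the GC box share differs at like distances was not tested. The DR1 element, a direct repeat of the nuclear receptor hexamer with a spacer of 1 base that RXR dimers can bind, was searched on both strands of the whole interval and was present in 1 of the 1370 peaks at gained genes and 3 of the 1258 at lost genes, and in 6 of the 3496 bexarotene and 6 of the 3271 control peaks at genes bound in both.

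**Figure D2:**
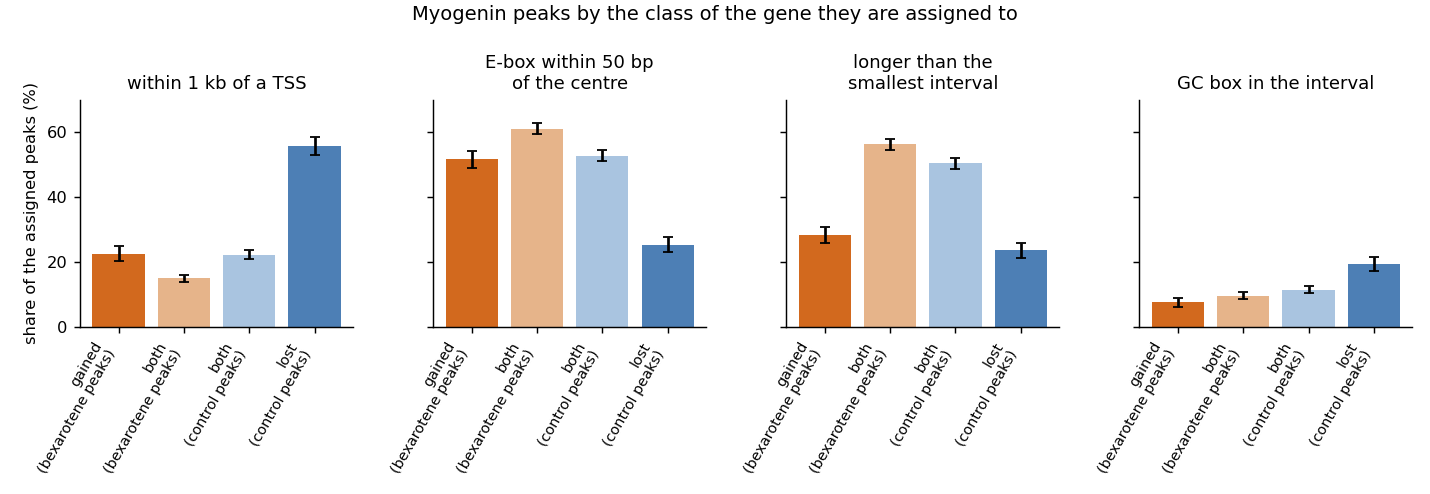
Share (%) of the assigned myogenin peaks with a given feature, by the class of the gene (gained, bound in both, lost) and the list the peaks come from; bars show the share and whiskers the 95% Wilson interval over peaks of 1 library. Peaks at lost genes have the highest share within 1 kb of a TSS (55.8%) and the lowest share with an E-box (25.4%), and peaks at gained and lost genes are less often longer than the smallest interval (28.2% and 23.5%) than peaks at genes bound in both.

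**Figure D3:**
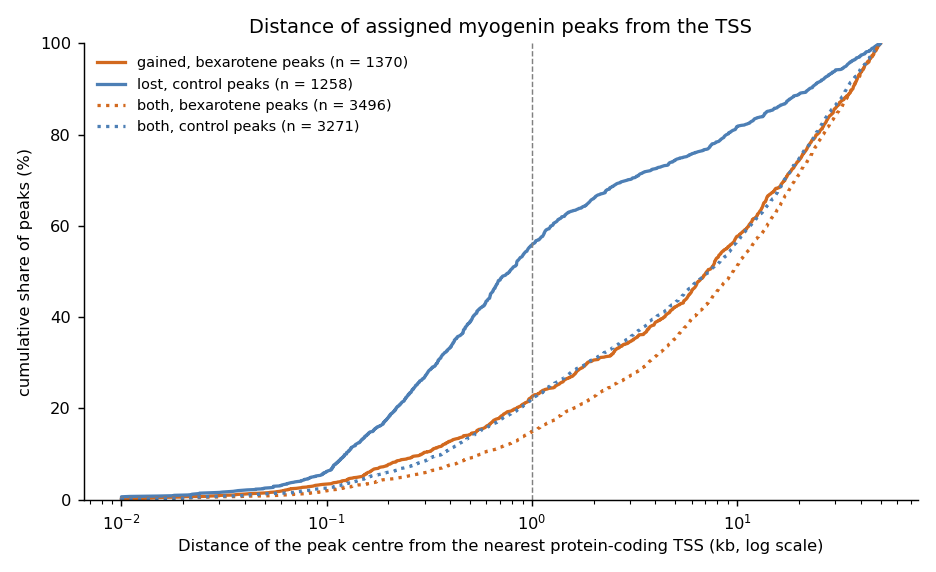
Cumulative share (%) of assigned myogenin peaks by the distance (kb, log scale) of the peak center from the nearest protein-coding TSS, with distances under 10 bp drawn at the left end; solid lines are peaks at gained (orange) and lost (blue) genes, dotted lines the peaks of each list at genes bound in both, and the dashed line marks 1 kb. The curve of the lost genes lies above the others, with a median of 778.5 bp against 7160.5 bp at gained genes.

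The p300 lists of the same 2 conditions were of unequal length, 22051 peaks in control and 9154 in bexarotene, so that shares on p300 cannot be compared across conditions. A p300 peak of the bexarotene list lay on a bexarotene peak at 15.6% of the gained genes, and a p300 peak of the control list lay on a control peak at 17.3% of the lost genes. Peak by peak within bexarotene, 14.5% at gained genes and 24.7% at genes bound in both lay on p300. Within control, 15.7% of the peaks at lost genes and 32.6% at genes bound in both did. Within the control p300 list, 55.8% of the gained genes, 50.7% of the lost genes and 73.3% of the genes bound in both had an assigned p300 peak, against 27.9% of all protein-coding genes. The median length of the gene record was 25.7 kb for gained, 22.7 kb for lost and 30.3 kb for genes bound in both, against 15.4 kb for all protein-coding genes.

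Of the 1971 genes bound in both lists, 1558 had a control and a bexarotene peak that overlapped. In 766 of these (49.2%) all assigned peaks overlapped, 589 (37.8%) also had a bexarotene peak that overlapped no control peak, and 437 (28.0%) also had a control peak that overlapped no bexarotene peak. The other 413 genes (21.0%) had peaks in each list and no overlap between them. At 123 of these (29.8%) the centers of the nearest control and bexarotene peaks lay within 1 kb of each other, and with peaks longer than the smallest interval 85 of 986 genes bound in both (8.62%) had no overlap. At these genes 202 (48.9%) had a control peak within 1 kb of a TSS and 124 (30.0%) had such a bexarotene peak. Binding within 1 kb in control and beyond it in bexarotene was seen at 115 of the 413, and the opposite at 37. An E-box was present in a control peak of 135 of them (32.7%) and in a bexarotene peak of 188 (45.5%).

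Among the 10 gained genes with most bexarotene peaks, which by definition have no control peak assigned, 8 had 3 bexarotene peaks. Heatr7b1 had 0 control and 5 bexarotene peaks, of which 4 were of the smallest interval. Ehd4, on chromosome 2 from 119914911 to 119980342, had 0 control and 4 bexarotene peaks, all intronic, and no control peak lay within 50 kb of it. Its longest peak, 711 bp in intron 1, held no E-box near the center but 2 farther out, and the peak 4719 bp downstream of the TSS held 2 near its center. Myom3 (chromosome 4, 135315630 to 135371479) had no control peak within 50 kb and no p300 peak assigned in either list. Slc16a10, an aromatic amino acid transporter, had 0 control and 3 bexarotene peaks, at 17414, -10376 and -11384 bp from its TSS, where a minus sign means upstream. Loxl1, a lysyl oxidase of elastic fibers, and Creb3l1, a membrane-bound transcription factor of the endoplasmic reticulum, had 0 control and 3 bexarotene peaks each, and at each gene 1 of the peaks lay on a p300 peak. Srgap3 also had 1 of 3 on p300, while Rfx4, a transcription factor with 3 peaks in intron 4, had 2 of 3 on p300 and no E-box in the central 100 bp, although 2 of its 3 intervals held 1 farther out. Dnajb12, a chaperone of the endoplasmic reticulum, had 3 peaks downstream of the gene without a central E-box, although 2 of the 3 intervals held at least 1 farther out, and 9830001H06Rik had 3 in intron 1. Of these 10 genes only Heatr7b1 had a peak within 1 kb of a TSS, where 24.6% of all gained genes had one. Control peaks assigned to other genes lay within 50 kb of 2 of the 10, 2 at Heatr7b1 and 1 at Rfx4.

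Of the 10 genes that lost most peaks, 7 had a control peak within 1 kb of a TSS, where 60.1% of all lost genes had one. Zfp36l2 (chromosome 17, 84583271 to 84587287) had 6 control and 0 bexarotene peaks, 4 of them within 1 kb of a TSS and 2 on p300. Map3k2, a kinase upstream of the MAP kinase cascades, had 4 control peaks, 3 of them within 1 kb of a TSS. Eef1d, a subunit of translation elongation factor 1, and Clic4, an intracellular chloride channel protein, had 4 control peaks each with 2 within 1 kb, and no E-box near any center, although 2 intervals of Eef1d held 1 farther out. Tlcd1 also had 4, with 2 within 1 kb and no E-box. Slc25a39, a mitochondrial carrier, had 3 control peaks, the longest of 788 bp at its promoter, and Gtf2i, the transcription factor TFII-I, had 3 upstream peaks, 1 of them within 1 kb. Nr4a1 (chromosome 15, 101097277 to 101105223) differed, with its 4 control peaks at -20002 to -12322 bp from the TSS. Kcnrg had 5 control peaks, each of exactly 172 bp, downstream of the gene and without an E-box, and Ier5l had 3 downstream. Bexarotene peaks assigned to other genes lay within 50 kb of 4 of the 10 genes, 4 each at Tlcd1 and Slc25a39 and 1 each at Kcnrg and Ier5l.

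The largest difference among genes bound in both was at Lmna (chromosome 3, 88285070 to 88313878, minus strand), with 1 control and 7 bexarotene peaks. None of the 7 overlapped the control peak, which lay 459 bp downstream of a TSS within the gene, and all 7 were beyond 1 kb of a TSS; 4 of the 7 held an E-box and 1 lay on p300. Macf1 and Plec, which encode linkers between cytoskeletal filaments, had 2 control and 7 bexarotene peaks, and 7 and 11. The 2 control peaks of Macf1 overlapped bexarotene peaks, so that 5 were added. Sorcs2, a receptor of the sortilin family, had 5 control peaks, all of which overlapped, and 10 bexarotene peaks, of which 2 lay within 1 kb of a TSS where control had none. Tmem182, a muscle membrane protein, had 1 and 5 peaks, and the bexarotene list included a peak of 361 bp at its start, 25 bp upstream. Bcar3 had 1 and 5, Dlgap4 had 5 and 8, and Cd82, a tetraspanin, had 4 and 7.

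The opposite pattern was seen at Rps6ka2, a ribosomal S6 kinase, with 8 control and 3 bexarotene peaks, and at Notch1, with 7 and 2. At both genes each bexarotene peak overlapped a control peak, so the bexarotene list held a subset of the control sites. Kdm6b, the H3K27 demethylase, had 7 control and 3 bexarotene peaks, again all overlapping. The peaks of Kdm6b that were not called under bexarotene were 4 of exactly 172 bp. Lrp1, an endocytic receptor, had 6 and 1 peaks, Sept9, a septin, 8 and 4, and Klf16 6 and 2. B230312A22Rik had 5 control peaks, all within 1 kb of a TSS, and 1 bexarotene peak, also within 1 kb. Bahcc1 and the RNA-binding protein gene Mex3d had 5 and 1, and at Mex3d the 2 lists did not overlap. Bin1, which shapes the T-tubule membrane, had 9 control and 6 bexarotene peaks, and all 6 overlapped.

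**Figure D4:**
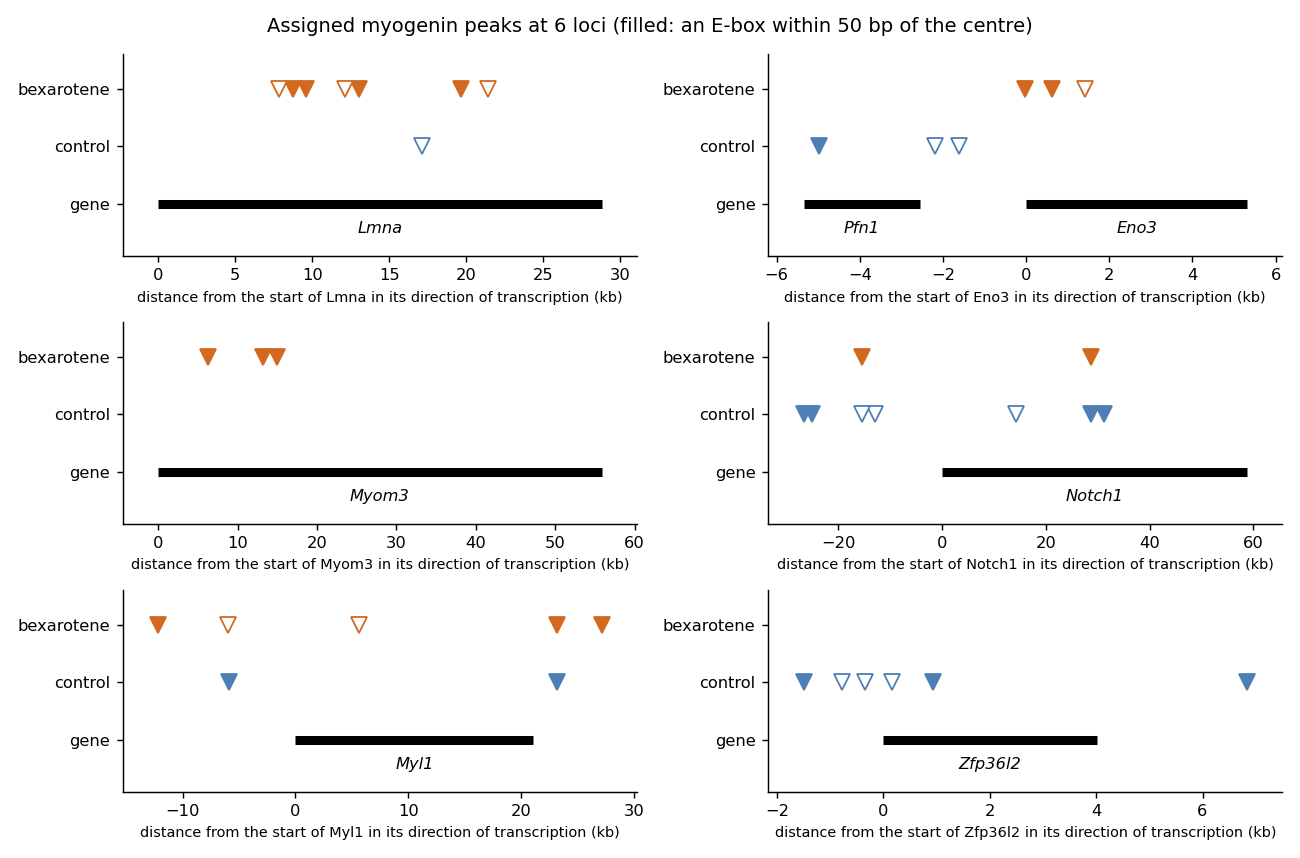
Positions of assigned myogenin peaks in control (blue) and bexarotene (orange) relative to the start of the gene (kb, along its direction of transcription) at 6 loci; the black bar is the gene, and filled symbols are peaks with an E-box within 50 bp of the center. Lmna goes from 1 to 7 peaks, Myom3 from 0 to 3 and Myl1 from 2 to 5, Notch1 from 7 to 2 and Zfp36l2 from 6 to 0, and at Eno3 the 3 bexarotene peaks stand beside the 3 control peaks of Pfn1.

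The genes with most peaks over the 2 lists were Mtss1, an actin and membrane regulator, with 9 control and 11 bexarotene peaks, and Plec. The unconventional myosin gene Myo10 (9 and 9) and the nonmuscle myosin gene Myh9 (8 and 8) had equal numbers, yet 5 of the 9 control peaks of Myo10 and 3 of the 8 of Myh9 overlapped a bexarotene peak. Plxna1, a semaphorin receptor, had 7 and 6 with 6 in common, and Trim8 had 8 and 5 with 3 in common. Equal counts therefore did not always mean the same sites. Among further loci that the study examined, Serac1 and Rapgefl1 had 0 control peaks and 1 bexarotene peak with an E-box each, and Adora1 had 1 and 1, which overlapped.

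Genes of the contractile apparatus were taken as 3 lists, the myosin chains, the thin filament and the thick filament with the Z-disc and M-band, which together held 82 genes. Of these 36 were bound in control and 52 in bexarotene; 19 (23.2%) gained and 3 (3.66%) lost all peaks, and 33 were bound in both. Among the 55 contractile genes bound in either list, 34.5% gained (23.4 to 47.7) and 5.45% lost (1.87 to 14.9), where 28.5% and 25.2% of the 4257 bound genes did so. The interval of the gained share covers that of all bound genes, and the interval of the lost share lies below it. With peaks longer than the smallest interval the lost share was 13.0% (6.12 to 25.7) of 46 bound contractile genes, and its interval then covered the 23.0% of all bound genes. The peaks assigned to these genes numbered 64 in control and 93 in bexarotene, a ratio of 1.45, and over all genes the ratio was 1.07. The median difference in peak number over the bound genes was 1 here and 0 over all bound genes. The combined list was formed after the counts of its parts were seen. Its intervals therefore describe the list and cannot decide whether its lost share differs from that of all bound genes.

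Among the 24 myosin genes, 9 were bound in control and 16 in bexarotene, with 7 gained and 0 lost. With peaks longer than the smallest interval 7 gained and 1 lost. With all peaks the gained share was 43.8% (23.1 to 66.8) of the 16 bound genes, an interval that covers the 28.5% of all bound genes. The lost share was 0% (0 to 19.4), against 25.2%. Gained were the heavy chain genes Myh2, Myh13 and Myh7b, the nonmuscle Myh10, the light chain genes Myl4 and Myl9 and the light chain kinase Mylk2, each with 0 control peaks and 1 bexarotene peak. Myl1, an essential light chain of fast muscle, had 2 control and 5 bexarotene peaks, with the 2 control peaks kept. The embryonic heavy chain Myh3 had 3 and 4, and Mylpf 1 and 2. Only Myl6b had fewer peaks under bexarotene, 3 in control and 1 in bexarotene.

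Of the 25 thin filament genes, 15 were bound in control and 20 in bexarotene, with 5 gained and 0 lost. The gained share was 25% (11.2 to 46.9) of the 20 bound genes, an interval that covers the 28.5% of all bound genes. The lost share was 0% (0 to 16.1), against 25.2%. The gained genes were the troponins Tnni1, Tnnt1 and Tnnt3, the leiomodin Lmod1 and the nebulin relative Nebl, again with 1 peak each. The peak of Tnnt1 was at its promoter and held an E-box. Acta2 and Actc1, the smooth muscle and cardiac actins that are expressed early in myogenesis, had 1 control and 3 bexarotene peaks each. Acta1, the skeletal actin, had 3 and 4 peaks, the added peak within 1 kb of a TSS. Troponin C1 (Tnnc1), Neb and Lmod2 had 2 control peaks and 1 bexarotene peak each.

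Of the 33 genes of the thick filament, Z-disc and M-band, 12 were bound in control and 16 in bexarotene, with 7 gained and 3 lost. With peaks longer than the smallest interval this order turned, to 4 gained and 5 lost. With all peaks, 36.8% (19.1 to 59.0) of the 19 bound genes gained and 15.8% (5.52 to 37.6) lost. These intervals cover the 28.5% and 25.2% of all bound genes. The myomesin genes Myom1 and Myom3 were gained, as were Obsl1, Myoz2, Cryab, Smyd1 and Ankrd23, and the bexarotene peaks of Obsl1, Cryab, Smyd1 and Ankrd23 lay within 1 kb of a TSS. Ankrd23 had 6 control peaks within 50 kb that were assigned to closer genes. Lost were the myosin chaperone Unc45b, Pdlim7 and Myoz1. Ankrd2 had 2 and 4 peaks, Myom2 2 and 3 and Mybph 1 and 2, while Ttn had 2 and 2 with 1 overlapping.

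At the 19 gained contractile genes, 14 (73.7%, 51.2 to 88.2) had an E-box, where 54.8% of all gained genes and 84.8% of the contractile genes bound in both had one in a bexarotene peak. Of the 33 contractile genes bound in both, 13 had exactly 1 bexarotene peak, so their share rests on more peaks per gene. A peak within 1 kb of a TSS was found at 6 of the 19 gained genes (31.6%, against 24.6% of all gained genes). A peak on p300 was found at 2 of the 19 (10.5%, against 15.6%), Lmod1 and Cryab. All of the 19 but Myom3 had exactly 1 peak, and 8 of the 19 had a control peak within 50 kb assigned to another gene. With those left out, 11 contractile genes gained and 1 lost all peaks. The gained share was then 20% (11.6 to 32.4) of the 55 bound contractile genes. Under the same rule 20.5% of all 4257 bound genes gained, so the contractile share was no longer the higher one. When peaks of the smallest interval were left out, 18 gained and 6 lost, but 12 of the 18 were among the 19. When a peak counted for every gene within 50 kb, 14 gained, 11 of them among the 19, and 4 lost. The gained share was then 21.5% (13.3 to 33.0) of 65 bound contractile genes, below the 23.3% of all 8195 bound genes. It stayed above that of all bound genes with a 10 kb limit (35.6% against 28.7%). The same held with peaks longer than the smallest interval (39.1% against 32.9%).

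**Figure D5:**
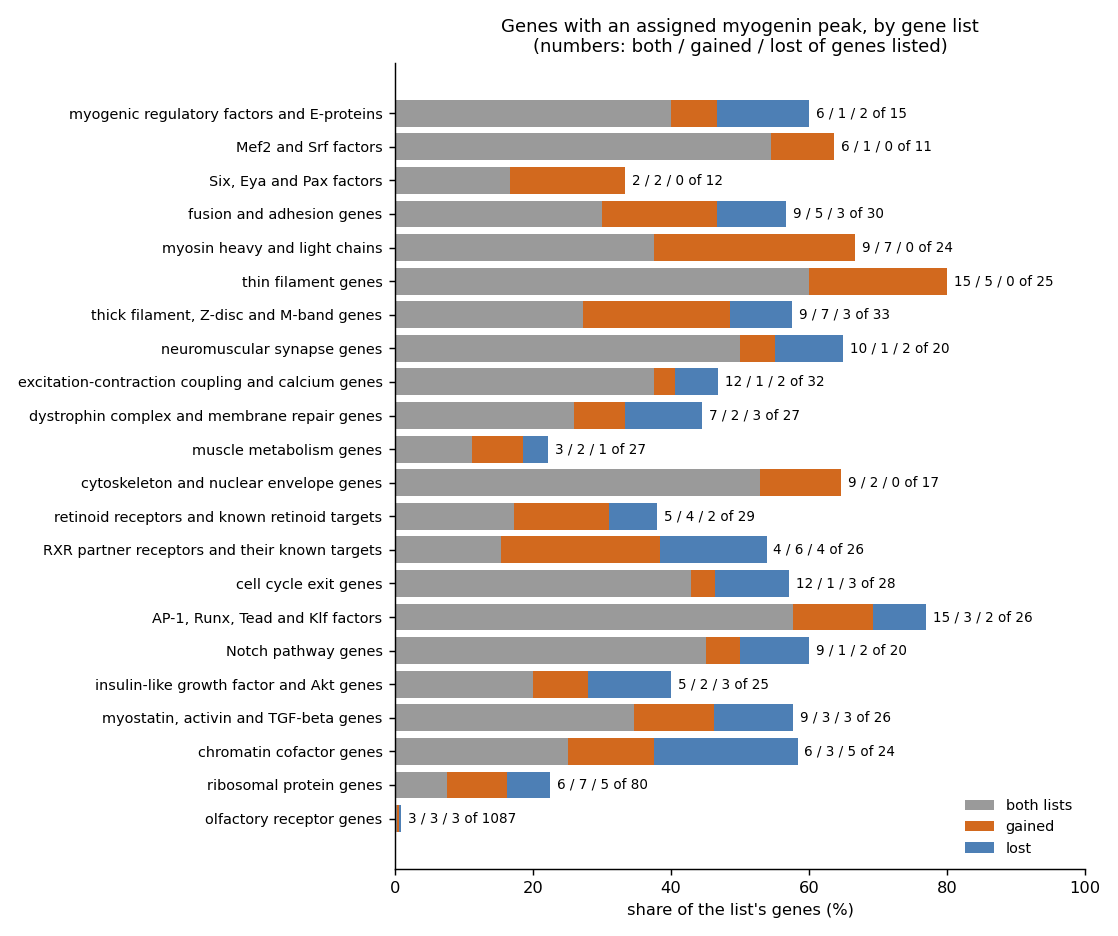
Share (%) of the genes of each list with an assigned myogenin peak in both lists (grey), in bexarotene alone (orange, gained) and in control alone (blue, lost), with the numbers of genes beside each bar. Over all protein-coding genes the shares are 8.81%, 5.42% and 4.8%; the myosin and thin filament lists have 0 lost genes, and the chromatin cofactor list has 5 lost and 3 gained.

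For the smaller gene lists that follow, the shares of all 4257 bound genes, 28.5% gained and 25.2% lost, are the measure to read the counts against. Of the 20 lists with unequal numbers of gained and lost genes, 10 turned that order in at least 1 of 10 alternative settings, a further 7 were tied in at least 1, and 3, the myosin, thin filament and ribosomal protein lists, kept it in the 10 run. The order of the counts below is therefore not a stable property of most lists.

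Of 15 myogenic regulatory factor and E-protein genes, 8 were bound in control and 7 in bexarotene, and their peaks numbered 18 and 9. Myod1 had 4 control and 3 bexarotene peaks, all 3 overlapping and each with an E-box, and Myog itself had 1 and 1. The E-protein genes Tcf12 and Tcf3, whose products are the partners of myogenin, had 4 and 1 and 2 and 1 peaks, and the repressor Bhlhe41 had 4 and 1. Of the inhibitors of the family, Id1 gained a promoter peak with an E-box, Id2 had 1 and 1, and Id3 lost its only peak although 4 bexarotene peaks lay within 50 kb. Bhlhe40 was lost too. Myf5, Myf6 and Twist1 had no assigned peak in either list. No gene of this list bound in both had more bexarotene than control peaks, while 4 had fewer and 2 had the same number. With a 10 kb limit 7 genes were bound in control and 3 in bexarotene, with 1 gained and 5 lost. With a peak counted for every gene within 50 kb, 8 were bound in each list, with 1 gained and 1 lost.

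Mef2 and Srf factors, which act with myogenin, had 21 control and 19 bexarotene peaks over 11 genes. Mef2d had 5 and 5 peaks, of which 2 overlapped, Mef2a had 2 and 2, and Mkl1 had 6 and 3. Srf gained 1 peak and no gene was lost. Among 12 homeobox, paired box and Eya factors, Six4 and Eya3 gained 1 peak each and Eya2 kept its peak, while Pax3 and Pax7 had none.

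Of 30 fusion and adhesion genes, 5 gained, 3 lost and 9 were bound in both, with 23 control and 24 bexarotene peaks. The 29.4% of bound genes that gained lay close to the 28.5% of all bound genes, and with peaks longer than the smallest interval 1 gained and 2 lost. Both membrane proteins that drive fusion kept their sites: Tmem8c, which encodes Myomaker, had 3 and 3 peaks, all overlapping and each with an E-box, and Gm7325, which encodes Myomixer, had 3 and 4. The adhesion molecules Jam2 and Jam3, the exchange factor Dock1, Nfatc2 and Ehd2 gained 1 peak with an E-box each. The integrin gene Itgb1, Kirrel and Tanc1 were lost, and the M-cadherin gene Cdh15 had 3 and 2 peaks.

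At the neuromuscular synapse, 12 of 20 genes were bound in control and 11 in bexarotene, and the peaks numbered 17 and 21. Musk and the fetal acetylcholine receptor subunit Chrng had 1 control and 3 bexarotene peaks each, and Dok7 and Colq 1 and 2. The subunits Chrna1 and Chrnb1 had 2 and 1. Scn4a, the muscle sodium channel, was gained, and Lrp4 and Etv5 were lost. Among 32 genes of excitation-contraction coupling and calcium handling, 12 were bound in both, 1 gained and 2 lost. Cacng1, the gamma subunit of the muscle calcium channel, had 1 control and 3 bexarotene peaks, all 3 on p300. Casq2, a calsequestrin, also had 1 and 3, whereas Camk2a and Camk2d were lost. Of 27 genes of the dystrophin complex and membrane repair, Dysf and Trim72, both of membrane repair, were gained, and Sgcb, Pomt1 and Col6a3 were lost.

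The 17 genes of the cytoskeleton and nuclear envelope had 30 control and 43 bexarotene peaks, with Lmna and Plec making up 10 of the difference, 2 genes gained and 0 lost. Nestin (Nes) and Kbtbd10 had 2 and 4 peaks each, and the desmin gene Des had none assigned, although 3 control and 0 bexarotene peaks lay within 50 kb. Of 27 genes of muscle metabolism, few were bound, 4 in control and 5 in bexarotene. Eno3 and Pkm2, both glycolytic, were gained, the glucose transporter Slc2a4 was lost, the myoglobin gene Mb kept 3 and 3 overlapping peaks, and the creatine kinase Ckm had no peak of either list within 50 kb.

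Because bexarotene acts on RXR, the receptors and their targets were described apart. Of 29 retinoid receptor and target genes, 7 were bound in control and 9 in bexarotene, with 4 gained, 2 lost and 5 in both. Of the 11 bound genes 36.4% (15.2 to 64.6) gained and 18.2% (5.14 to 47.7) lost, and with a 10 kb limit 2 gained and 2 lost. Gained were Dhrs3 and Tgm2, a transglutaminase, with 0 control and 2 bexarotene peaks each, Hoxb1, and the coactivator Ncoa1. Lost were the receptor genes Rarg and Rxrb, each with 1 control peak within 1 kb of a TSS. Rara had 3 and 3 peaks with 1 overlapping, Rarb had 2 and 1, and Rxra and Rxrg had no peak within 50 kb.

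Among 26 genes of the RXR partner receptors and their targets, 6 gained, 4 lost and 4 were bound in both. The order turned with a 10 kb limit (2 gained, 4 lost), with TSS of every biotype (4 and 5) and with peaks longer than the smallest interval (2 and 3). These genes had 14 control and 15 bexarotene peaks. Of the 14 control peaks 1 overlapped a bexarotene peak, against 2081 of the 4529 control peaks assigned to all genes. Overlap is almost absent at gained and lost genes by their definition (0 of 1370 and 3 of 1258 peaks over all genes). Part of the low overlap here therefore restates the gained and lost counts. Ppara, the fatty acid receptor, had 0 control and 3 bexarotene peaks, all of 168 bp and at -36808 to -26154 bp from the TSS, and 1 of them held an E-box. Pparg, the vitamin D receptor gene Vdr, Cpt1a and Ucp3 gained 1 peak each and Lpcat3 gained 2. Nr4a1 lost 4, and Srebf1, Nr1h2 and Acaa2 each lost 1 promoter peak.

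Chromatin cofactor genes had 23 control and 14 bexarotene peaks, a ratio of 0.609, where the myogenic factor list had a ratio of 0.5 and all genes 1.07. Of its 24 genes 5 lost and 3 gained all peaks. Lost were Crebbp, the close relative of p300, the remodeling ATPase Smarca4, the demethylase Kdm6a and the class IIa deacetylases Hdac5 and Hdac7. Ep300, the gene of p300 itself, had 3 and 2 peaks without overlap, and its 2 promoter peaks were in the control list. Hdac9, Prmt5 and Setd7 were gained. Of the 5 lost genes, 4 had a control peak within 1 kb of a TSS and none had a central E-box, where 60.1% of all lost genes had a peak within 1 kb and 28.3% an E-box.

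In the signaling and cell cycle lists the numbers of gained and lost genes differed by at most 2. Of 20 Notch pathway genes, 1 gained and 2 lost, and among the genes bound in both the receptor gene Notch1 had 7 control and 2 bexarotene peaks, while Rbpj, the DNA-binding effector of the pathway, had 2 and 6. The ligand gene Dll1 had 4 and 4, all overlapping and each with an E-box. Of 28 cell cycle genes, Cdkn2c, an inhibitor of Cdk4 and Cdk6, gained a promoter peak, and Cdk4, Cdk6 and the antiproliferative Btg1 were lost. Cdkn1a, the inhibitor p21, had 2 and 2 peaks without overlap, and Ccnd3 had 6 and 5. Of 25 insulin-like growth factor and Akt genes, 2 gained and 3 lost, with Pik3ca among the lost, Akt2 at 5 and 4 peaks and Foxo3 at 5 and 3. In the TGF-beta list 3 gained, among them the activin receptor Acvr2b, and 3 lost, and Smad3 had 2 and 5 peaks. Of 26 AP-1, Runx, Tead and Klf factors, 15 were bound in both, with Tead4 at 3 and 5 peaks and Runx1 at 2 and 4. Batf, Cbfb and Klf9 were gained, and Jun and Fosb were lost.

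As lists outside muscle, 7 of 80 ribosomal protein genes gained and 5 lost. Of their 18 bound genes 38.9% (20.3 to 61.4) gained and 27.8% (12.5 to 50.9) lost, a gained share at the level of the 34.5% of contractile genes. Of the olfactory receptor genes, 3 of 1087 gained and 3 lost (0.276% each), against 5.42% and 4.8% of all protein-coding genes. Of their 9 bound genes 33.3% (12.1 to 64.6) gained and 33.3% lost. This interval covers the shares of all bound genes.

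Of 10 genes set as markers of muscle cells, Myod1, Myog, Myh3, Acta1 and Cdh15 were bound in both lists, Tnnt3 in bexarotene only, and Myf5, Mef2c, Des and Ckm in neither. The lists hold binding sites and not RNA, so they do not show the expression of these genes.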

How the data were processed

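Myogenin ChIP-seq peak lists of 2 libraries and p300 lists of 2 libraries were used, out of 8 samples. Per the labels and the methods of the study, the authors aligned myogenin reads to mm9 with BWA-MEM v0.7.10 and p300 reads with Bowtie v0.12.7, removed duplicates with Picard v2.6.0 and called peaks per library with HOMER v4.10 in factor style. The deposited values are interval positions, so the authors' threshold could not be changed and depth is unknown.

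Peak centers were assigned to 51723 TSS of GENCODE vM1 protein-coding transcripts, whose chromosome 1 length of 197195432 matches mm9. Peaks overlapped from 1 bp. Coordinates are counted from 1, negative distances lie upstream, and introns are numbered on the longest transcript. Named genes are the 10 first of each class by peak number, ties going to longer peaks, plus members of 22 gene lists and the loci of the study. Eno3, with its neighbor Pfn1, and Myl1 were singled out after their values were seen. The members and lists were chosen with earlier results of these data known. For 8 symbols 2 gene records were bound and counted apart. Alternatives changed the assignment, distance limit, TSS catalog, peaks and motif. The functions were tested on simulated data. Python 3.11.15, numpy 2.4.6, pandas 2.3.3, scipy 1.17.1 and matplotlib 3.10.9 were used. A few genes that these rules name are not reported here.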

Additional observations from a re-analysis of the deposited data

How the results depend on the processing

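With 1 library per condition no library could be left out, and no paired analysis was possible because no result comes from a test. In the settings run, the share of genes with a peak within 1 kb of a TSS stayed lower at gained than at lost genes, and the share with an E-box higher. Counting a peak for every gene within 50 kb gave 6285 control and 6411 bexarotene genes, 1910 gained, 1784 lost, 4501 in both and 1283 in both without overlap, with 12.1% of gained and 27.6% of lost genes bound within 1 kb of a TSS. A 10 kb limit gave 2133 control and 1961 bexarotene genes, 858 gained, 1030 lost and 1103 in both, so that control then had more bound genes and more genes lost than gained; the shares within 1 kb, with an E-box and on p300 became 38.5%, 45.9% and 9.67% for gained and 70.8%, 24.1% and 12.1% for lost genes. Without a limit 21.5% of gained and 55.8% of lost genes, and with 1 TSS per gene 54.9% of lost genes, were bound within 1 kb. Peaks longer than the smallest interval gave 1501 control and 1723 bexarotene genes, 737 gained, 515 lost, 986 in both and 85 without overlap, shares of 16.0%, 68.1% and 27.1% for gained and 50.7%, 37.1% and 24.3% for lost genes, and 6 lost contractile genes, a share whose interval no longer lay below that of all bound genes. An E-box anywhere in the interval was found at 68.5% of gained and 42.2% of lost genes, and CAGCTG alone at 44.5% and 18.5%. With p300 centers within 500 bp the lost share was 24.8%. Requiring no peak of the other list within 50 kb of any TSS left 11 gained contractile genes and 1 lost. The gained share was then 20% of the bound contractile genes and 20.5% of all bound genes, so it was no longer higher for contractile genes. The contractile counts were added after seeing the data. The cause of these shifts beyond the construction of each setting was not tested. A limit of 100 kb, TSS of every biotype, merged intervals, chromosomes 1 to 19 and X, and centers within 1 kb left the counts within 1.5 times and the shares within their intervals. The depth behind the peaks is unknown.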

Other observations

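The share of genes with a myogenin peak differed between chromosomes in each list. On chromosome 15, 226 of 797 protein-coding genes (28.4%) had a control peak and 215 a bexarotene peak, and on chromosome 10 the shares were 24.4% and 22.3% of 1045 genes, against 13.6% and 14.2% over all genes. More genes lost than gained all peaks on these chromosomes, 76 against 65 on chromosome 15 and 88 against 66 on chromosome 10, and also on chromosomes 3 (53 and 50), 5 (81 and 80), 17 (69 and 64) and 18 (26 and 22). On chromosome 19 the numbers were equal, 42 and 42. On each of the other autosomes and on X more genes gained than lost, for example 133 and 113 on chromosome 11 and 54 and 31 on chromosome 12. The X chromosome had few bound genes, 2.68% in control and 3.97% in bexarotene, with 16 gained and 4 lost.

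Of the 3645 bexarotene peaks without an overlapping control peak, 863 (23.7%) had no protein-coding TSS within 50 kb, 1370 were at gained genes and 1412 at genes bound in both. Of the 2920 unique control peaks, 472 (16.2%) had no TSS within 50 kb, 1255 were at lost genes and 1193 at genes bound in both. Over all peaks, 26.7% of the bexarotene list and 23.4% of the control list had no TSS within 50 kb, so that unique peaks lay away from genes less often than the peaks of their list as a whole.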
